A study of Mus musculus with 12 samples.

Results

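The 10 genes described here carry signals of insulin-like growth factor (IGF) and insulin: the ligand Igf1, the receptors Igf1r and Insr, the receptor substrates Irs1 and Irs2, and the binding proteins Igfbp2 to Igfbp6. They were taken by name from the deposited table, chosen for the growth axis that is of interest in NSD1 overgrowth syndrome. All 10 were found among its 34193 genes, and all 10 were among the 14397 genes that were tested because their mean over all libraries reached 10 normalised reads. The tissue was the cerebral cortex of mice aged 8 weeks. Controls carried Nsd1 flx/flx alleles and no Nestin-cre (Nestin-cre -/-), and conditional knockouts (cKO) carried Nsd1 flx/flx with Nestin-cre +/-. Both groups thus carry the loxP-flanked alleles, and no Nestin-cre group without them is part of the comparison, so that deletion of Nsd1 and presence of the transgene cannot be told apart. Nestin-Cre acts in the neural lineage, and cells of other origin in the tissue, such as microglia and vessels, are outside its main domain. Each group had 6 libraries, labelled as biological replicates without naming animals. P-values therefore measure the spread between these libraries.

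IGF1 is a secreted peptide that drives growth of the body and supports the growth and survival of neurons. It binds the IGF1 receptor, a tyrosine kinase closely related to the insulin receptor, and both receptors phosphorylate the docking proteins IRS1 and IRS2, which pass the signal to PI3-kinase, AKT and mTOR. IGF-binding proteins hold the peptide outside the cell, and secreted proteases that cut them release it. NSD1 itself methylates histone H3 at lysine 36, and loss of function of the human gene causes Sotos syndrome, an overgrowth disorder.

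Values are counts divided by a size factor per library by the authors, called normalised reads here. Fold changes are differences of log2(value + 1) from limma with terms for genotype and for the set of libraries, and a call means an adjusted p (Benjamini-Hochberg, over all tested genes) under 0.05. Control libraries held 10.5 to 21.1 M reads and cKO libraries 14.6 to 27.0 M, and no member had fewer than 54 reads in any library. Libraries 1 to 3 of each genotype held Y-linked reads and libraries 4 to 6 did not, which goes against the sex label of the same number in 8 of 12 columns, so columns were tied to genotypes only. Control libraries 4 and 5 had the largest shares of mitochondrial ribosomal RNA, at 14.2% and 11.5%, against at most 6.00% in the others. The targeted gene Nsd1 stood at 4235 ± 850 normalised reads in control libraries and 3251 ± 299 in cKO libraries (SD, n = 6 per group), and was not called (limma log2 fold change -0.36, adjusted p = 0.383). These reads cover the whole gene and do not measure the deleted part alone. Cortical markers were present: the 9 markers of cortical excitatory neurons summed to between 33590 and 48275 normalised reads per library, while the choroid plexus list summed to at most 145.

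The promoters of the 2 members with the smallest p-values, Igfbp5 and Igfbp4, are shown because they are the members nearest to a change in the comparison that follows. Each sequence holds the 250 bases before the gene's start in RefSeq, 5′ to 3′ on the gene's strand in build GRCm38.p6, with CpG dinucleotides in capitals. The Igfbp5 window is chr1:72874866-72875115 on the minus strand and the Igfbp4 window is chr11:99040994-99041243 on the plus strand.
Igfbp5: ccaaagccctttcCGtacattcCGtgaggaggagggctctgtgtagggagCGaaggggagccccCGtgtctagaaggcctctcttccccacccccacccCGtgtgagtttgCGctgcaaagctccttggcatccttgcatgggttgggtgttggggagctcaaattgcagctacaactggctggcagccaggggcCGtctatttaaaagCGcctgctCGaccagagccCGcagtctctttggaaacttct
Igfbp4: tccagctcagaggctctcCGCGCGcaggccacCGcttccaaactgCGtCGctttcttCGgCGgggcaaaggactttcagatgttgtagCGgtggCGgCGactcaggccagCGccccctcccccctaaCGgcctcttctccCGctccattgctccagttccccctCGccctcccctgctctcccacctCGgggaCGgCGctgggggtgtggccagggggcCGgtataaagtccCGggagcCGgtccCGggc
The Igfbp5 window holds 10 CpG and the Igfbp4 window 22, below and above the median of 15 for 12978 windows of tested genes (quartiles 8 and 22). Windows were matched for 9 of the 10 members, and their CpG counts ran from 5 in Igf1 to 42 in Igf1r. Windows of all genes were searched for exact letters on both strands. TATAAA, the core of a TATA box, lies in the Igfbp4 window shown and in that of Igfbp6, and in 12.4% of all windows. GGGCGG, a GC box, lies in windows of Igf1r, Irs1, Irs2 and Igfbp2, and in 32.7% of all windows. GTAAACA, a core bound by FOXO factors, and TGACGTCA, the cyclic AMP response element, lie in 3.17% and 1.55% of all windows and in no window of the 9 members. These are matches of letters and not measured sites.

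Per length, 4 of the 5 binding proteins were the most abundant transcripts of the set and the ligand the least abundant. Levels were divided by the longest transcript of each gene in the GENCODE annotation, which may differ from the model the authors counted. Igfbp6 stood at 711 ± 93.7 normalised reads per kb over the 12 libraries (SD), followed by Igfbp5 at 584 ± 75.2, Igfbp2 at 539 ± 79.8 and Igfbp4 at 460 ± 64.8. The ranges of neighbours in this order overlapped, while those of Igfbp6 and Igfbp4 did not. Igfbp6 lay above Igfbp5 in 11 of 12 libraries, while Igfbp5 and Igfbp2 differed by less than their SD. Irs2 followed at 198 ± 49.3, Insr at 126 ± 16.3, Igf1r at 95.7 ± 13.7 and Irs1 at 78.6 ± 10.5. Igfbp3 lay at 72.7 ± 11.5, within the spread of Irs1. Igf1 came last, between 14.1 and 29.0 per kb, above 16.1% of the tested genes, and below each other member in all 12 libraries. The ranges of Irs2 and Igfbp4 did not overlap.

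**Figure D1:**
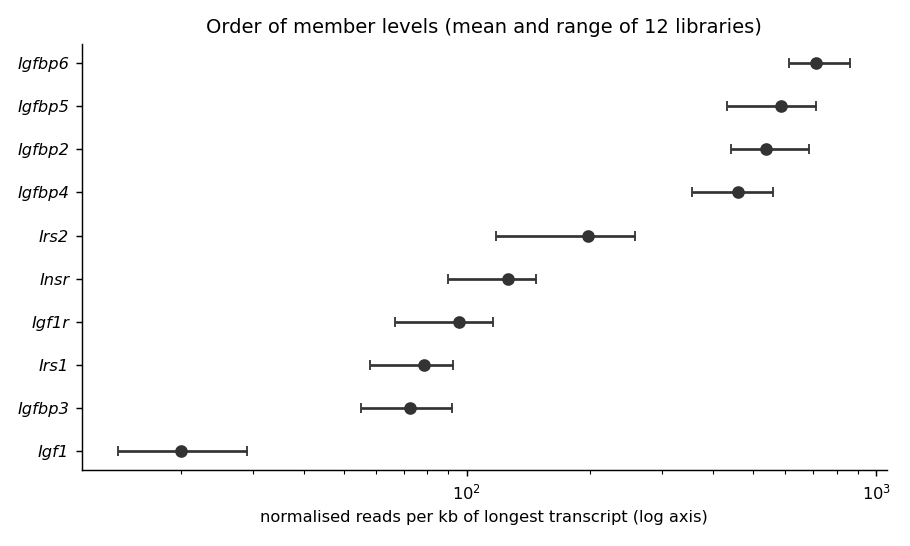
Level of each member in normalised reads per kb of its longest transcript, on a log axis, as the mean (point) and the range (bar) of 12 libraries. Igfbp6, Igfbp5, Igfbp2 and Igfbp4 lie between 354 and 864, and Igf1 lies lowest, between 14.1 and 29.0.

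Comparing cKO with control libraries asks whether expression of this growth axis differs when Cre is present beside the loxP-flanked Nsd1 alleles. None of the 10 members was called by limma, by edgeR or by DESeq2, where limma called 0.834% of all tested genes, edgeR 0.827% and DESeq2 1.17%. At an unadjusted p under 0.05, 2 of 10 members passed with each of the 3 tools, Igfbp4 and Igfbp5, against 9.73% of all tested genes with limma. Both were higher in the cKO, a direction with 4.61% of all tested genes at that threshold. The adjusted p of the members lay between 0.457 and 0.992. The median log2 fold change was 0.10 over the members and -0.00069 over all tested genes, and 8 of 10 members lay above 0, against 49.9% of tested genes. The members' median was 0.05 without control library 3, with 6 of 10 above 0, and 0.05 without cKO library 5. With single libraries left out, 1 to 3 members passed at an unadjusted p under 0.05. In all 10 the libraries of the groups overlapped, whereas they did not overlap in 1.01% of tested genes. The 95% intervals (limma) ran from 0.820-fold at the lowest bound, of Igfbp3, to 1.46-fold at the highest, of Irs2, so changes beyond these bounds lie outside the interval of every member.

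**Figure D2:**
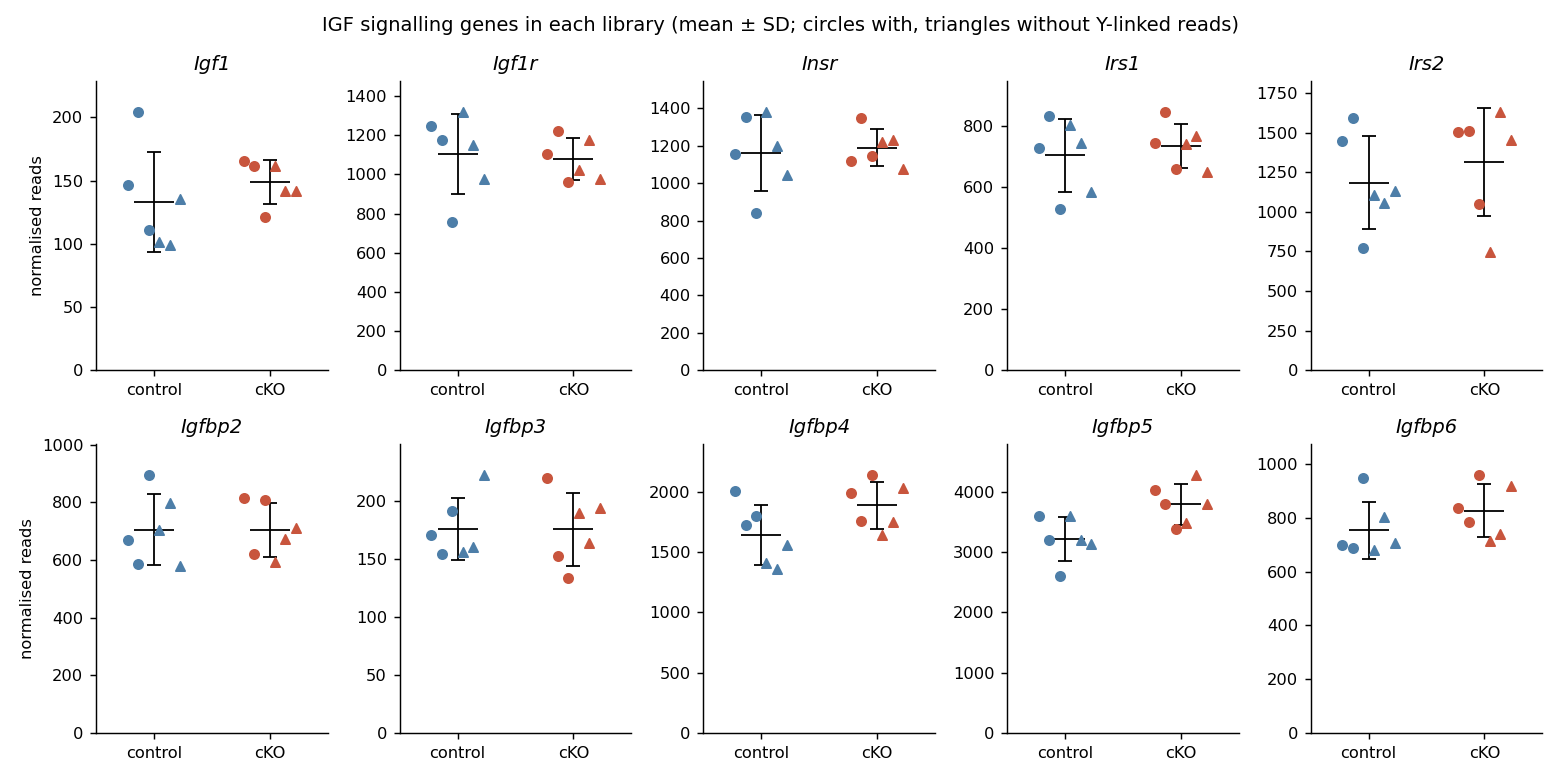
Normalised reads of the 10 members in each of 6 control and 6 cKO libraries, each panel with its own axis from 0. Points are libraries, circles with and triangles without Y-linked reads, and bars give mean and SD. The groups overlap in every panel, and in the Igfbp5 panel 4 cKO libraries lie above the highest control.

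The ligand Igf1 is made in the brain by neurons and glia. Its level in the controls was lowest at 99.3, with a median of 123 and a highest value of 204 normalised reads, and in the cKO it was 121, 152 and 166. Control 2 was the highest of the 12 libraries and control libraries 4 and 5 were the lowest, so that all cKO libraries lay inside the control range. The log2 fold change was 0.20 (SE 0.15, 95% interval -0.12 to 0.52, limma adjusted p = 0.615). It was 0.04 without control libraries 4 and 5 and 0.33 without control library 2. In the libraries with Y-linked reads it was -0.01 and in those without 0.41. That difference of 0.42 had an interval of -0.20 to 1.05 and did not pass the test (limma adjusted p = 0.617). In a tissue sample, fewer cells of a type and less RNA per cell cannot be told apart.

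The receptors had fold changes near 0. Igf1r, the receptor for IGF1 and IGF2, had 1106 ± 205 normalised reads in control libraries and 1077 ± 107 in cKO libraries (SD, n = 6 per group; log2 fold change -0.02, 95% interval -0.28 to 0.24, limma adjusted p = 0.962). Its libraries ran from 760 over a median of 1164 to 1319 in the controls, and from 961 over 1065 to 1220 in the cKO. Every cKO library lay inside the control range. Insr, the insulin receptor, had 1162 ± 202 and 1190 ± 97.8 normalised reads (SD, n = 6 per group; log2 fold change 0.05, 95% interval -0.19 to 0.29, limma adjusted p = 0.873). The cKO libraries of Insr, at 1078 to 1350, lay inside the control range of 839 to 1381 as well. For both receptors control library 3 was the lowest of all 12. Without it the log2 fold changes were -0.13 for Igf1r and -0.04 for Insr.

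The substrates IRS1 and IRS2 dock PI3-kinase to the activated receptors. Irs1 had 703 ± 121 normalised reads in control libraries and 734 ± 72.2 in cKO libraries (SD, n = 6 per group; log2 fold change 0.08, 95% interval -0.17 to 0.32, limma adjusted p = 0.805). It ran from 529 to 832 in the controls and from 650 to 845 in the cKO, which overlap over most of their length. Irs2 was the most variable substrate, at 1184 ± 294 and 1315 ± 343 normalised reads (SD, n = 6 per group; log2 fold change 0.14, 95% interval -0.27 to 0.55, limma adjusted p = 0.783). Control libraries of Irs2 ran from 774 over a median of 1119 to 1594, and cKO libraries from 746 over 1478 to 1631. Control 3 and cKO 4 were the low libraries of Irs2. Without cKO library 4 its log2 fold change was 0.29, and without control library 3 it was -0.0046.

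Igfbp5 and Igfbp4 had the smallest p-values of the set. IGFBP5 binds IGFs with high affinity and also attaches to extracellular matrix. Its libraries were at 2597, 3196 and 3601 normalised reads in the controls (lowest, median, highest) and at 3379, 3799 and 4285 in the cKO. All 6 cKO libraries lay above the control median and 4 of them above the highest control, while control 3 was the lowest of all. The means were 3221 ± 369 and 3795 ± 338 (SD, n = 6 per group), which gave a ratio of 1.18. The difference of 0.24 on the log2 scale (SE 0.09, 95% interval 0.05 to 0.43) was not called (limma adjusted p = 0.457, unadjusted p = 0.0183, place 570 among the 14397 tested genes). Libraries with Y-linked reads gave 0.26 and the remaining ones 0.22. The authors' deposited table lists Igfbp5 with a log2 fold change of 0.24 (standard error 0.09, adjusted p = 0.409).

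IGFBP4 is a binding protein that mostly restrains IGF action and is cut by the protease PAPP-A. Igfbp4 had 1357, 1641 and 2003 normalised reads in the controls (lowest, median, highest) and 1639, 1876 and 2141 in the cKO. In the cKO 5 of 6 libraries lay above the control median and 2 above the highest control. Control libraries 4 and 5 were the lowest, at 1407 and 1357. The log2 fold change of 0.21 (SE 0.09, 95% interval 0.03 to 0.39) was not called (limma adjusted p = 0.476, unadjusted p = 0.0283). Without control libraries 4 and 5 it was 0.13, with an unadjusted limma p of 0.186, and the part of the ribosomal RNA share of those libraries in this value was not tested. Libraries with Y-linked reads gave a log2 fold change of 0.09 and the remaining ones 0.32. That difference did not pass the test (limma adjusted p = 0.627). The unadjusted limma p of Igfbp4 was 0.0595 without the Y-linked term and 0.0559 with quantile normalization.

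The other binding proteins had fold changes closer to 0. Igfbp6, which prefers IGF2, had 754 ± 106 normalised reads in control libraries and 826 ± 98.0 in cKO libraries (SD, n = 6 per group; log2 fold change 0.13, 95% interval -0.08 to 0.35, limma adjusted p = 0.614). Its highest libraries were control 3 at 950 and cKO 3 at 960, and all 6 cKO libraries lay above the control median of 702. Without cKO library 6 its log2 fold change was 0.09. Igfbp2, the binding protein long known from the developing brain, had 705 ± 124 and 704 ± 93.1 normalised reads (SD, n = 6 per group; log2 fold change 0.0041, 95% interval -0.24 to 0.25, limma adjusted p = 0.992). Igfbp3, the main carrier of IGFs in blood, had 176 ± 26.8 and 176 ± 31.5 (SD, n = 6 per group; log2 fold change -0.0088, 95% interval -0.29 to 0.27, limma adjusted p = 0.984). Igfbp2 is also made by leptomeningeal cells. The 7 leptomeningeal markers, all tested and none at 0, summed to 1382 to 1744 normalised reads in control libraries and 1232 to 1761 in the cKO. None of them was called, and 2 of 7 lay above 0.

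**Figure D3:**
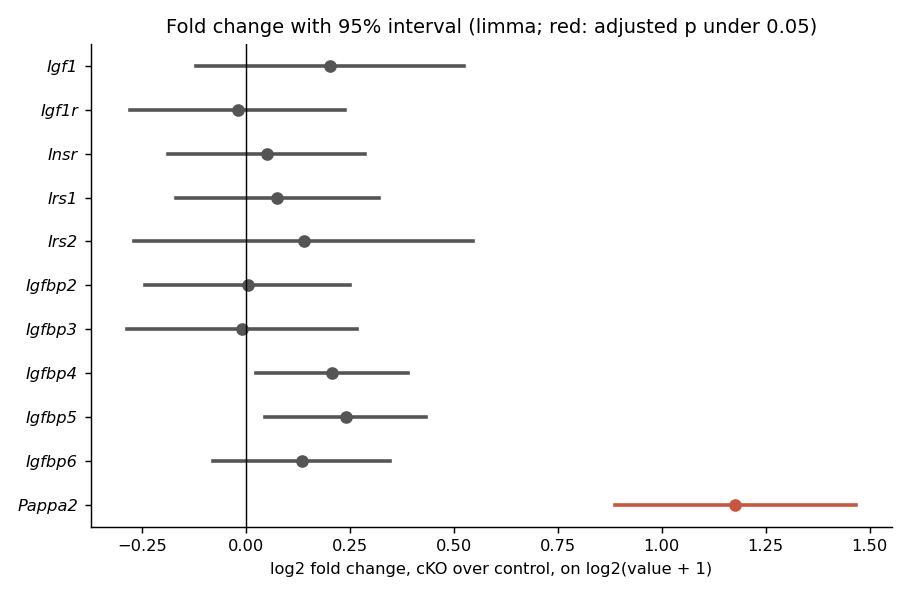
Log2 fold change of cKO over control with its 95% interval (limma) for the 10 members and for the protease gene Pappa2. The intervals of Igfbp4 and Igfbp5 lie above 0, at 0.03 to 0.39 and 0.05 to 0.43, without passing adjustment over all genes, and that of Pappa2 lies at 0.89 to 1.47.

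The rest of the pathway was read from 8 lists of 65 genes, of which 57 reached the filter. A single gene of the 57 was called by limma, Pappa2, and it rose in the cKO. Over all tested genes limma called 0.834%, and 0.764% as higher in the cKO. At an unadjusted limma p under 0.05, 8 of the 57 passed (14.0%), against 9.73% of all tested genes. Of the 57, 7 passed as higher in the cKO, against 4.61% of all tested genes. Among these 7, 3 belong to the list of proteases and their inhibitors that holds Pappa2. PAPP-A2 is a secreted metalloprotease that cuts IGFBP3 and IGFBP5 and so releases IGF1. Pappa2 had 61.4, 70.2 and 115 normalised reads in the controls (lowest, median, highest) and 141, 169 and 199 in the cKO. The lowest cKO library thus lay above the highest control, as was found for 0.813% of all tested genes. The means were 76.3 ± 19.7 and 171 ± 19.0 (SD, n = 6 per group), a ratio of 2.24. On the log2 scale the change was 1.18 (SE 0.14, 95% interval 0.89 to 1.47, limma adjusted p = 0.00019). It was 1.02 in the libraries with Y-linked reads and 1.34 in those without, a difference of 0.32 that did not pass the test (limma adjusted p = 0.681). Pappa2 was called under all 25 alternatives, with an adjusted p of at most 0.00426. The authors' deposited table gives it a log2 fold change of 1.16 and an adjusted p of 7.6e-11.

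The substrates of this protease in the set, Igfbp3 and Igfbp5, had log2 fold changes of -0.0088 and 0.24 and were not called. The list of Pappa2 holds 4 more genes. Stc1 and Stc2 are stanniocalcins that inhibit the pappalysin proteases, and are named after their values were seen. Their log2 fold changes were 0.63 and 0.52 (limma adjusted p = 0.476 and 0.512). Mean levels in control and cKO libraries were 36.6 and 56.8 normalised reads for Stc1 and 16.0 and 22.6 for Stc2. Htra1, a serine protease that can cut binding proteins, stood at 0.05, and Pappa, the paralogue of Pappa2, at 0.13 from a mean of about 10 normalised reads. All 5 lay above 0, against 49.9% of all tested genes, with a list median of 0.52 against -0.00069. The list includes Pappa2 and was written with earlier results of these data known, so these values carry no test.

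The other ligand of the receptor, Igf2, had 954 ± 187 normalised reads in control libraries and 1215 ± 93.0 in cKO libraries (SD, n = 6 per group; log2 fold change 0.37, 95% interval 0.13 to 0.62). It was not called (limma adjusted p = 0.296, unadjusted p = 0.0051), and 4 cKO libraries lay above the highest control. Control 6 was its lowest library at 624, and without it the log2 fold change was 0.26. Igf2 in the adult brain comes largely from meninges and choroid plexus. The summed leptomeningeal markers given above and those of choroid plexus, at 110 to 145 in the controls and 98.5 to 140 in the cKO, overlapped between the groups, with medians of 1605 and 1480 for the first list and 122 and 108 for the second. None of the 4 choroid plexus markers tested was called, and 1 of 4 lay above 0, with Ttr at -0.71 and Clic6 at 0.38. The part of meninges and choroid plexus in the Igf2 value was not tested. Insulin genes and the liver products Igfbp1 and Igfals were at or near 0, with means of at most 0.854 normalised reads, and were not tested. Igfbpl1 stood at -0.49 (limma adjusted p = 0.525), and at -0.30 without control library 5.

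No gene of the remaining lists was called, where limma called 0.834% of all tested genes. Among other receptors, Igf2r had a log2 fold change of 0.19 and Ghr, the growth hormone receptor, -0.14. Igf2r stood at 0.09 without control library 3 and Ghr at -0.08 without cKO library 5. Among 12 adaptor and feedback genes the smallest p in each direction belonged to Socs3, an inhibitor of cytokine and insulin signals, at 0.39 (limma adjusted p = 0.457), and Grb14 at -0.19 (0.524). The 14 genes of PI3-kinase and AKT lay close together, from -0.08 for Akt1 to 0.15 for Pik3r3, with 7 of 14 above 0 and a median of 0.0036. Without cKO library 4 Akt1 stood at -0.04 and Pik3r3 at 0.06. Of 13 mTOR genes, Rps6kb1, which encodes the S6 kinase, stood at 0.20 (limma adjusted p = 0.486) and Eif4ebp1, a brake on translation, at -0.50 (0.476). FOXO and GSK3 genes ran from -0.08 for Foxo4 to 0.18 for Sgk1. Foxo4 was at -0.02 without cKO library 4 and -0.15 without control library 1, and Sgk1 at 0.10 without control library 4. Igf2bp2, the tested IGF2 mRNA-binding protein, stood at -0.04 from a mean of about 10 normalised reads. Over all 57 genes, 30 lay above 0 and the median was 0.01.

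**Figure D4:**
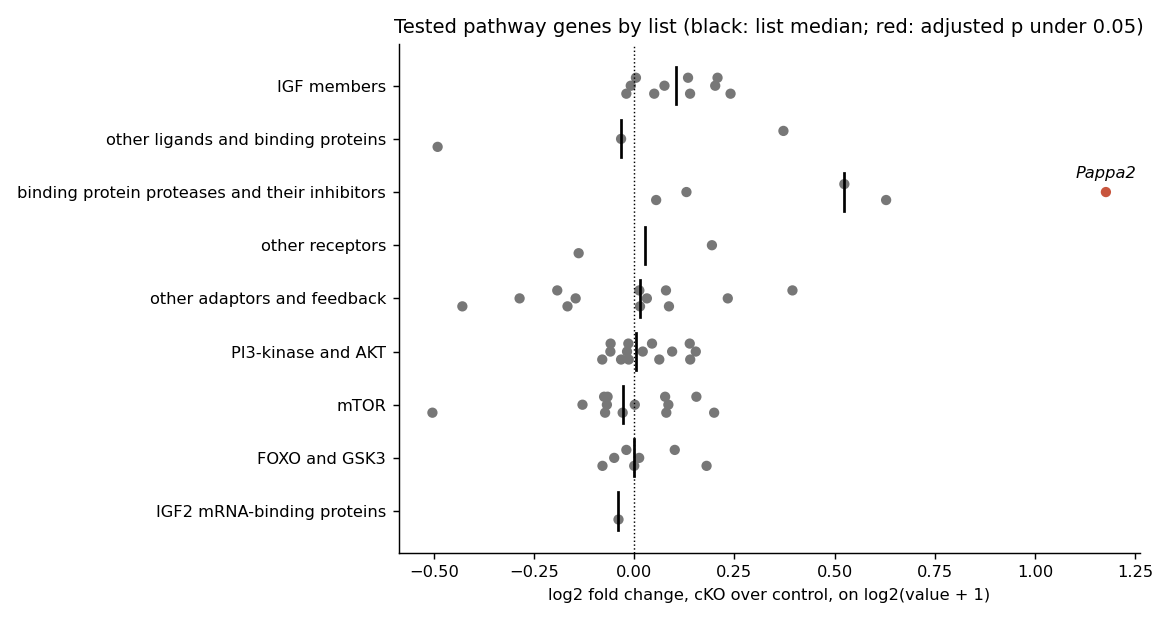
Log2 fold change of cKO over control for each tested gene, by list, with the list median as a black bar. Pappa2 (red) is the called gene, at 1.18, and the 10 members lie between -0.02 and 0.24.

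The members differed in how they varied from library to library. After group means were subtracted, the 4 receptor and substrate genes were correlated with each other over the 12 libraries (Pearson r from 0.43 to 0.95 over 6 pairs, median 0.76). Insr and Irs1 formed the closest pair, at 0.95. The 5 binding proteins had a median r of -0.02 over 10 pairs, from -0.65 for Igfbp5 with Igfbp6 to 0.82 for Igfbp2 with Igfbp6. Between both sets of genes the median was -0.37 over 20 pairs. Within them Igfbp5 went with Igf1r at 0.86, and Igfbp6 opposite to it at -0.73. These are descriptions of the same 12 libraries, which share their depth across all genes, and carry no test.

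Transcript length moved with part of this pattern. Igf1r, Insr, Irs1, Igf1 and Irs2 have longest transcripts of 11409, 9355, 9144, 7052 and 6323 bases, and Igfbp2 and Igfbp6 of 1307 and 1112. The log2 level per doubling of transcript length was taken in each library over all tested genes with a known length. This trend ran from -0.13 to 0.12 in control libraries (median -0.06). In cKO libraries it ran from -0.03 to 0.11, with a higher median of 0.03. The trend was lowest in control 3, where Igf1r, Insr, Irs1 and Irs2 stood 0.43 to 0.64 below their means on the log2 scale. Igfbp2 and Igfbp6 stood 0.36 and 0.28 above in that library. Control 5 had the next lowest trend, at -0.11, without the same pattern. There Igf1r, Insr and Irs1 deviated by 0.09, 0.04 and 0.06, Irs2 by -0.20, and Igfbp2 and Igfbp6 by 0.19 and 0.03. After group means were subtracted, the library's length trend had an r of 0.73 with Igf1, 0.65 with Irs1, 0.61 with Insr, 0.54 with Igf1r and 0.38 with Irs2, and of -0.66 with Igfbp2 and -0.67 with Igfbp6. It was weaker for Igfbp5, at 0.33 with a transcript of 6006 bases, for Igfbp3, at -0.23 with 2421 bases, and for Igfbp4, at 0.03 with 3831 bases. The same r was 0.60 for Pappa2, with 9518 bases, and 0.75 for Nsd1, with 12784 bases. With this trend removed, the log2 fold change was -0.14 for Igf1r, 0.13 for Igf1, 0.18 for Igfbp5 and 0.24 for Igfbp6, with no member called (limma, lowest adjusted p of 0.172 for Igfbp6).

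**Figure D5:**
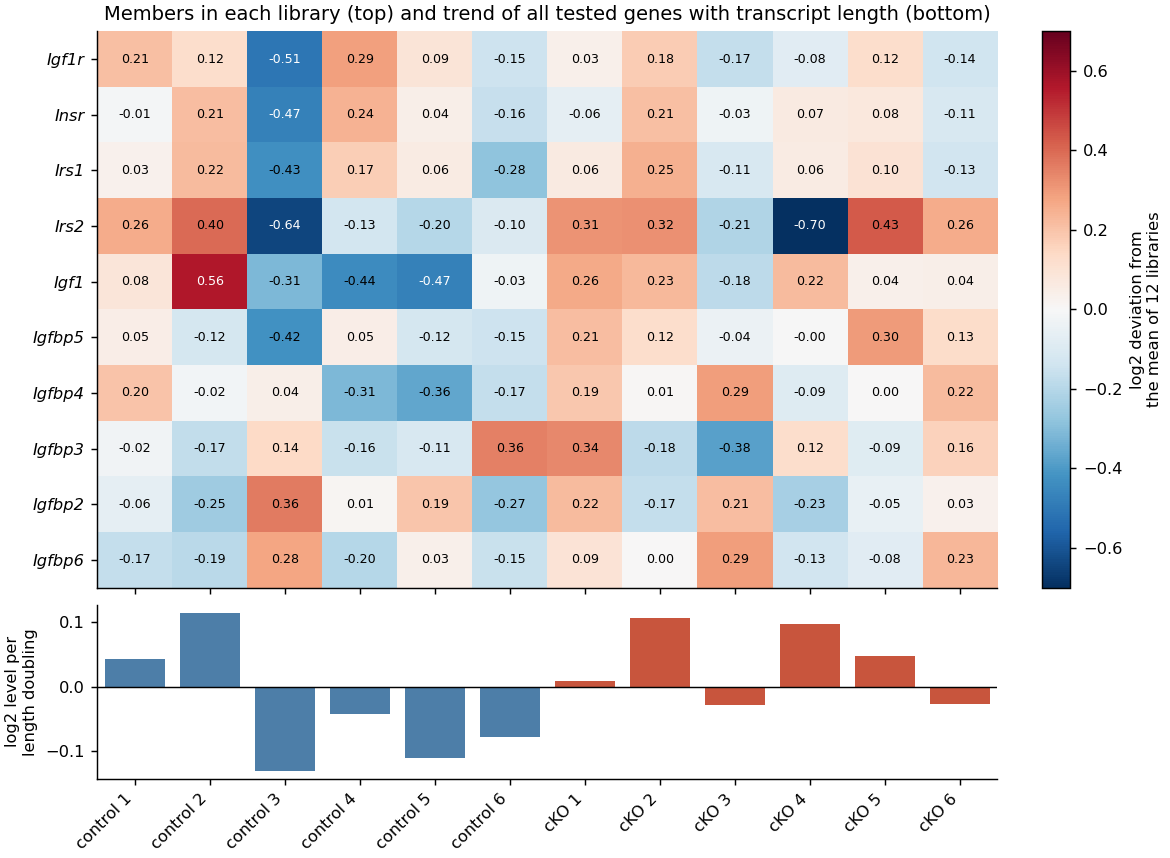
Top: log2 deviation of each member from its mean over 12 libraries, with values in the cells. Bottom: log2 level per doubling of transcript length over all tested genes, in blue for control and red for cKO libraries. Control 3 has the lowest trend, -0.13, and low values of Igf1r, Insr, Irs1 and Irs2. Control 5, at -0.11, has values of Igf1r, Insr and Irs1 above 0.

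The genes most alike to members over the 12 libraries were searched among 11409 genes whose mean reached 50 normalised reads. A maximum over so many genes is high by construction. Group means and the length trend were not removed for this search, and their part in these values was not tested. For Irs1 it was Tln2, which encodes a talin, with a Pearson r of 0.99 over 12 libraries. For Insr it was Fryl at 0.98, for Irs2 Wac at 0.98, for Igf1r Tbck at 0.97, and for Igf1 Kpna1, a nuclear import receptor, at 0.97. For Igfbp4 it was Hr at 0.96, for Igfbp5 Susd2 at 0.91, for Igfbp6 Dkkl1 at 0.89, for Igfbp2 Pycrl at 0.88 and for Igfbp3 Rbl2 at 0.86.

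Control libraries were more spread than cKO libraries. The coefficient of variation was larger in the controls for 8 of 10 members, against 63.3% of all tested genes. It was 29.9% and 11.5% for Igf1 and 18.5% and 9.89% for Igf1r, and the exceptions were Irs2 (24.8% and 26.1%) and Igfbp3 (15.2% and 17.9%).

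Effects of genotype were compared between libraries with and without Y-linked reads. No member passed that test, adjusted (limma, lowest adjusted p of 0.617) or unadjusted, where 0 of the 14397 tested genes passed adjusted and 8.77% passed unadjusted. The differences ran from -0.18 for Igf1r to 0.42 for Igf1 on the log2 scale.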

How the data were processed

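RNA-seq libraries came from 6 control and 6 cKO cortices. Per the labels' protocols, ribosomal RNA was depleted and a directional kit was used. Per the submitters' processing notes, STAR, Bowtie, bedtools, Trim Galore and the build mm9 were used, in roles not stated. The signal values are counts that the authors normalised with DESeq2, per the file headers. The authors' deposited table also holds log2 fold changes, a score (Wald statistic), p-values and adjusted p-values. The use of strand in counting was not stated, so antisense reads may be included.

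All values above 0 were whole multiples of 1 step per library (100% within 0.01), which gave whole reads for edgeR 4.0.16 and DESeq2 1.42.0. The main test was limma 3.58.1 (R 4.3.3) with an intensity trend on log2(value + 1), with genotype and the Y-linked set (summed Y-linked value above 100), for genes whose mean reached 10. It was tested on simulated counts that held no effect of the Y-linked set and no length trend. The added 1 makes the fold changes of low genes too small. Pairs of libraries within a group differed by more than counting noise (lowest chi-square 6.86 for each degree of freedom). The table holds 25 date-like names, kept as they are.

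The members and lists were chosen with earlier results of these data known. Named are all members, called pathway genes, Nsd1, and in each list the gene with the smallest p in each direction. Of the 3 genes most alike to each member, the first is printed. Named outside this rule are Stc1, Stc2, Htra1 and Pappa, the untested Igfbp1 and Igfals, and the markers Ttr and Clic6. Lengths are from GENCODE M21 (98.2% of tested genes matched), promoters from RefSeq, both GRCm38. Alternatives were the pseudocount, filter, scaling, array weights, tool, Y-linked term, replicate block, left-out libraries and length trend.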

Additional observations from a re-analysis of the deposited data

Results flagged for a closer look

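Among 22 groups examined (10 members and Pappa2 in each genotype), 1 library stood far from the others. Pappa2 in control library 2 was at 115 normalised reads, a gap to the next control of 0.750 of the control range, where 0.625 is the limit for 6 libraries. Chance flags about 1 in 20 such groups. It lay below the lowest cKO library, and without it the log2 fold change of Pappa2 was 1.29.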

How the results depend on the processing

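Under 25 alternatives no member was called in any of 250 values (lowest adjusted p of 0.153), and 222 kept their direction. Called genes numbered 58 with a mean of at least 50, which tests fewer genes, and 97 to 123 with single libraries left out, against 120. Without control libraries 4 and 5, Igf1r was at 0.085, Foxo4 at 0.022 and Igf2bp2 at 0.21. With the length trend removed, Insr was at -0.053, Irs1 at -0.025 and Igfbp3 at 0.022, and Nsd1 was called at -0.49 (limma adjusted p = 0.0041). With edgeR and DESeq2, Igfbp2 was at -0.0083 and -0.0064. With quantile normalization and array weights, Igfbp3 was at 0.026 and 0.0050, and Igf2bp2 at 0.10 with array weights. With single libraries left out, log2 fold changes ran from -0.13 to 0.037 for Igf1r, -0.044 to 0.11 for Insr, -0.012 to 0.13 for Irs1, -0.0046 to 0.29 for Irs2, -0.063 to 0.073 for Igfbp2, -0.095 to 0.064 for Igfbp3 and -0.28 to 0.068 for Igf2bp2. The cause was not tested. The test between sets called 0 genes, and 0 to 7 with single libraries left out, 7 without control library 6. The replicate block called 118 genes, no member among them. Same-numbered libraries correlated by more than 0.1 in 3 of 6 pairs, and 6 of 12 libraries correlated best with their own number. The correlations were 0.20, 0.46 and 0.48 for numbers 1 to 3, and from -0.098 to 0.045 for numbers 4 to 6. The main test did not pair libraries by number, and whether numbers 1 to 3 pair samples was not tested. Members had 54 to 5751 reads per library. Counting error alone (Poisson) gives a coefficient of variation of 7.20% to 9.96% for Igf1 and Igfbp3, against 11.5% to 29.9% between libraries. For the others it gives 1.55% to 4.14%, against 8.22% to 26.1%. Counting error was thus largest for Igf1 and Igfbp3, and the spread between libraries was larger than counting error in every member and group.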
